A study of Mus musculus with 2 samples.

Results

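The Maf and cap-n-collar genes encode basic leucine zipper transcription factors, and 8 of them were followed in mouse lens with and without the homeobox gene Msx2. They were chosen by gene name: the large Maf gene Maf, the small Maf genes Mafg, Mafk and Maff, the NRF genes Nfe2l1 and Nfe2l2, and the repressor genes Bach1 and Bach2. All 8 were among the 21673 genes of the deposited table, and all 8 had a mean level of 1 FPKM or more over both libraries, the minimum for calling a gene measured (10757 genes). FPKM counts fragments per kilobase of a gene's length relative to a scaled library size. The RNA was taken from lens of C57BL/6 mice, 60 days old. The CKO library came from Le-Cre+/- Msx2 fl/fl mice, in which regulatory sequences of Pax6 drive Cre recombinase in the lens and in other surface ectoderm of the eye. The WT library came from Msx2 fl/fl mice without Cre, so both libraries carry the floxed alleles and Cre itself differs along with Msx2. There was 1 library per genotype, and the sources used here do not say whether animals were pooled.

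These proteins bind DNA as dimers. MAF carries a transcription activation domain, and in mouse it is needed for lens fibre cells to elongate and for crystallin genes to be expressed at full level. The small Maf proteins lack that domain: as homodimers they repress, and as partners of NRF1 (from Nfe2l1) and NRF2 (from Nfe2l2) they help to activate antioxidant and proteasome genes, while with BACH1 they repress haem oxygenase. Mice with reduced Mafg and Mafk develop cataract.

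The sites these dimers bind can be read in promoters of the genes concerned, and are printed here because the crystallin and NRF2 target comparisons refer to them. RefSeq windows on GRCm38.p6, from 250 bases before to 50 after each start, were searched on both strands for TGCTGAC, the Maf site, and for TGACNNNGC, the core of the antioxidant response element. The letters TGAC are shared by both, and where they coincide the joined site reads TGCTGACNNNGC. Among 13 crystallin genes with a window, out of 14 taken as MAF targets, 5 held the Maf site, against 5.28% of all 27025 genes with a window, and 3 held the joined site, against 0.340%. The antioxidant core was in 6 of these 13 genes (46.2%), so it is not particular to NRF2 targets. Of the 7 members with a window (there was no entry for Maf), 4 held the antioxidant core (Mafg, Mafk, Maff and Nfe2l2) and 1 the Maf site (Nfe2l1, in 3 overlapping windows of starts within the gene), and among all genes 14.0% held the core. Counted by window, since a gene can have several, the core was in 4 of 13 windows of these members and in 12.4% of all 32851. Of 28 NRF2 target genes with a window, 11 held the core (39.3%), in 12 of 35 windows, and 4 held the Maf site. A match describes these letters and is not evidence of binding. Each stretch is printed 5′ to 3′ on the strand of its gene, with the matched site in capitals; a site that reads from GC to GTCA is the antioxidant core on the other strand. The crystallin stretches lie at chr17:31677807-31677850 (plus strand), chr11:77725323-77725366 (minus), chr5:112255720-112255763 (plus) and chr1:74893178-74893218 (minus), where the Cryba2 window holds 3 cores, of which the nearest to the start is shown.
Cryaa: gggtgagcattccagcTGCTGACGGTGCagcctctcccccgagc
Cryba1: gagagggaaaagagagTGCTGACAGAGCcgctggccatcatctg
Crybb1: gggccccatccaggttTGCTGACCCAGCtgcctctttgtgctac
Cryba2: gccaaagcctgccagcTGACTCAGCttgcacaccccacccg
The sites begin 108, 57, 84 and 59 bases before the start of their genes.

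The antioxidant cores of the small Maf genes and of Nfe2l2 lie at chr11:120633745-120633785 (minus strand), chr5:139791507-139791547 (plus), chr15:79346493-79346533 (plus) and chr2:75704879-75704913 (minus). They begin 222, 13, 112 and 240 bases before the RefSeq start of their window. The Maff window ends at 79346670, before the deposited span of the gene begins at 79347541, so its start is another one. The cores are shown with those of Gclm (chr3:122245407-122245447, plus) and Srxn1 (chr2:152105536-152105573, plus), a pair of NRF2 target genes with different values below.
Mafg: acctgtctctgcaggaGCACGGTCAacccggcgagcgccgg
Mafk: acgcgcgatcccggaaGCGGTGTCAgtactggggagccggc
Maff: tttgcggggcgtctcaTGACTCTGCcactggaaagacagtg
Nfe2l2: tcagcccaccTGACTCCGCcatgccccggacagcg
Gclm: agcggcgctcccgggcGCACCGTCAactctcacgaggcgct
Srxn1: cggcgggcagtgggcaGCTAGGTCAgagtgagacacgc
As the authors scaled the values, the 4 members that carry the core did not share a direction. Mafg was lower in the CKO library, Mafk and Nfe2l2 were higher, and the counting interval of Maff included no change. With libraries scaled to their totals alone (below), each was higher: Mafg 1.17-fold, Mafk 2.56-fold, Maff 2.31-fold and Nfe2l2 2.36-fold. Whether the core has a part in these values was not tested.

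The libraries differed in more than Msx2. The reads recovered from the table numbered 17165504 in CKO and 20784737 in WT, and Msx2 itself had 3 reads in CKO and 311 in WT. Of 12 photoreceptor markers, 11 were measured and all of these were more than 2-fold higher in CKO, with summed levels of 789 and 22.0 FPKM. Leukocyte markers summed to 50.4 and 9.27 FPKM. Of 13 in that list 7 were measured, all more than 2-fold higher, while Ptprc was near the floor at 0.0304 and 0.0250. Inner retina and glia markers summed to 157 and 49.6. No gene of these 3 lists was at 0 in either library. Glul alone gave 93.2 and 38.3 FPKM of the inner retina and glia sum, and of 8 measured there 6 were more than 2-fold higher on FPKM + 1. Prkca was nearly level at 4.07 and 3.75, and Pou4f1, below 1 FPKM, was at 0.522 and 0.603. Of 4 cornea and conjunctiva markers in the table, Aldh3a1 was at 169 and 11.6 FPKM and made nearly all of their sum of 170 and 13.6, while Krt4 was at 0.883 and 1.72, Krt13 at 0.0235 and 0.180, and Krt14 at 0 and 0.0745. Endothelial markers summed to 5.45 and 1.84, mostly from Kdr (2.87 and 0.181) and Tek (2.30 and 1.57). Pecam1 (0.158 and 0.0526) and Cdh5 (0.118 and 0.0329) were near the floor. Erythroid markers summed to 2.88 and 0.386, but none of the 5 in the table was measured, and Alas2 was lower in CKO (0.0712 and 0.136). Lens fibre markers summed to 4973 FPKM in CKO and 13556 in WT, and 7 of 9 measured were more than 2-fold lower. Lens epithelial markers summed to 141 and 257, and 2 of 7 measured were more than 2-fold lower. Foxe3 (63.0 and 116) and Gja1 (18.6 and 55.1) made much of that sum. Cdh1 (11.6 and 13.9), Cdh2 (21.8 and 25.2) and Pax6 (16.1 and 21.6) differed less. All these levels are as the authors scaled them, and the sums were not recomputed on other scales. Xist had 16251 reads in CKO and 35 in WT, and the Y-linked gene Eif2s3y had 0 and 819, so the sex of the animals differed too. The part of these differences in the values below was not tested, and in bulk tissue fewer cells of a type and less RNA per cell cannot be told apart.

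The main lens factor of the family, Maf, stood at 54.2 FPKM in CKO against 109 FPKM in WT, on 10444 and 13708 reads. It was the most abundant of the 8 genes in both libraries, above 97.8% of measured genes in WT and above 96.3% in CKO. Its level was 2.01-fold lower in CKO, with a 95% counting interval of 1.96 to 2.06. This interval and those that follow are exact and reflect counting error alone; variation between animals or preparations is not in them. The log2 ratio of FPKM + 1 was -0.99, just inside the size rule used for calling a difference, which asks for 2-fold on that scale. Of all measured genes, 2.98% had a lower ratio. Maf (ENSMUSG00000055435) spans 115682942 to 115707794 of chromosome 8 in GRCm38 (minus strand), and its principal transcript has 1 exon and encodes 370 residues. The annotated antisense gene Gm15655 shares 440 exonic bases with it, and the sources used here do not say whether counting used strand.

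Among the small Maf genes, Mafg was lower in CKO while Mafk and Maff were not. Mafg measured 20.1 FPKM in the CKO library against 32.0 in WT. It was 1.59-fold lower (1.51 to 1.68), with 6.97% of measured genes at a lower ratio. Mafk was at 4.20 and 3.04 FPKM, 1.38-fold higher in CKO (1.16 to 1.66), on 383 and 181 reads. Maff was at 2.42 and 1.95 FPKM, on 120 and 63 reads, and the interval of its fold, 0.910 to 1.72 for CKO over WT, included 1. Mafg, the largest of these contributors, made 86.5% of the summed small Maf level in WT and 75.3% in CKO, while Mafk made 8.21% and 15.7%. The summed level was 37.0 FPKM in WT and 26.8 in CKO as the authors scaled the values, so there the lower sum came with a different mixture. With libraries scaled to their totals alone (below), each of the 3 genes was higher in CKO, so the sum was not lower. The mixture does not depend on library scaling. The 3 proteins are short, with 162 residues for MAFG and 156 for each of MAFK and MAFF, against the 370 of MAF. Mafg shares 124 exonic bases with Sirt7 on the same strand, which had 310 reads in CKO and 197 in WT. Mafk shares 169 with Tmem184a on the other strand, which had 3 and 2. Mafg (ENSMUSG00000051510) lies on chromosome 11 from 120625117 to 120633600 (minus strand), Mafk (ENSMUSG00000018143) on chromosome 5 from 139791513 to 139802653 (plus) and Maff (ENSMUSG00000042622) on chromosome 15 from 79347541 to 79359072 (plus).

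**Figure D1:**
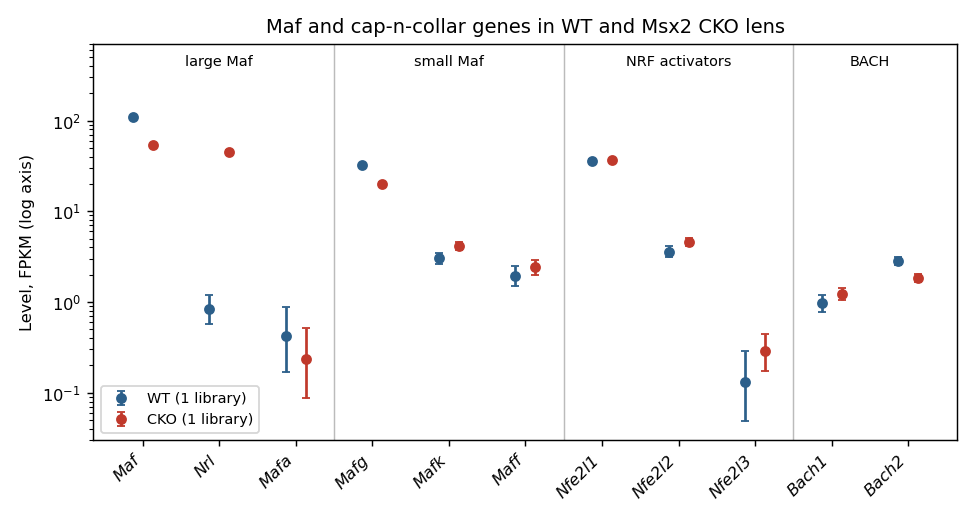
Level in FPKM (vertical, log axis) of the Maf, NRF and BACH genes in the WT (blue) and CKO (red) libraries, 1 library each; bars are exact 95% counting intervals. Maf, Mafg and Bach2 sit lower in CKO, Nrl far higher (45.3 against 0.837 FPKM), and Nfe2l1 level; Nfe2, with 0 and 2 reads, is not drawn.

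Nfe2l1, whose product NRF1 drives proteasome genes, was the member that differed least under the deposited scaling. Its level was 36.5 FPKM in CKO against 36.3 in WT, a fold of 1.01 (0.960 to 1.05) on 4645 and 3019 reads. It was the second most abundant member in each library. Nfe2l2, whose product NRF2 is the main activator of antioxidant genes and is mostly set by protein turnover rather than by its RNA, was at 4.60 and 3.61 FPKM, 1.28-fold higher in CKO (1.08 to 1.51). Nfe2l1 thus stood 7.94 times above Nfe2l2 in CKO and 10.1 times above it in WT. Nfe2l1 (ENSMUSG00000038615) lies on chromosome 11 from 96817414 to 96829968 and Nfe2l2 (ENSMUSG00000015839) on chromosome 2 from 75675513 to 75704641, both on the minus strand.

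Bach1 and Bach2 were, with Maff, the 3 least abundant members in both libraries, and the repressor genes differed in direction. Bach1, whose product represses haem oxygenase until haem binds it, was at 1.23 FPKM in CKO against 0.965 in WT, on 177 and 91 reads, and its fold of 1.27 had an interval of 0.981 to 1.65. Bach2, known from B cell development, was at 1.84 and 2.85 FPKM, 1.55-fold lower in CKO (1.35 to 1.78), on 427 and 433 reads. The antisense gene Bach2os shares 537 exonic bases with Bach2 and had 11 reads in CKO and 2 in WT. Bach1 (ENSMUSG00000025612) lies on chromosome 16 from 87698945 to 87733346 and Bach2 (ENSMUSG00000040270) on chromosome 4 from 32238804 to 32586108, both on the plus strand. In the order of levels, the intervals of Nfe2l2 and Mafk overlapped in both libraries, those of Mafk and Bach2 in WT, and those of Maff and Bach2 in CKO; all other neighbours were separated beyond counting error.

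None of the 8 genes passed the 2-fold rule in either direction. By that rule 5.83% of all measured genes were higher and 2.93% lower in CKO. With a rule of 1.5-fold on the same FPKM + 1 scale, chosen after the data were seen, 2 of the 8 were lower, Maf and Mafg, and none higher, beside 8.09% and 10.1% of all measured genes. Bach2, 1.55-fold lower by FPKM, did not pass because its log2 ratio of FPKM + 1 was -0.44. With a pseudocount of 0.1 that ratio was -0.61. The median log2 ratio of the 8 genes was 0.09, and that of all measured genes -0.02. The counting interval of the fold lay clear of 1 for 5 of the 8 genes. The same count was not made over all measured genes, so it does not set these genes apart.

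How far these genes differ depends on how the libraries are scaled, since crystallins take a large share of lens RNA. The deposited values rest on effective libraries of 1.36 (CKO) and 0.735 (WT) times the recovered totals, and no label says how the authors set that scale. Median-of-ratios scaling, which takes the median ratio over genes read in both libraries, shifted log2 ratios from the deposited ones by -0.01. With it Mafg was 1.61-fold lower in CKO (1.52 to 1.69) and Bach2 1.57-fold lower (1.37 to 1.80). Scaling to library totals alone raised the median log2 ratio of all measured genes from -0.02 to 0.68. Under it Maf was 1.08-fold lower (1.06 to 1.11), Mafg and Bach2 changed direction to 1.17-fold and 1.19-fold higher, and Mafk passed the 2-fold rule with a log2 ratio of 1.06. Nfe2l1 was then 1.86-fold higher (1.78 to 1.95), a larger difference than those of Maf, Mafg and Bach2. Maff was 2.31-fold (1.69 to 3.18) and Bach1 2.36-fold higher (1.82 to 3.07), and without crystallins in the totals they were 1.48-fold (1.08 to 2.04) and 1.51-fold higher (1.16 to 1.96). All 8 intervals were clear of 1 under each of these totals-based scalings, against 5 under the deposited one and 5 under median-of-ratios. Here too, all measured genes were not counted. Measured from the median of all genes, Maf stood at -0.79 under library totals and at -0.98 under the deposited scaling. Mafg stood at -0.47 and -0.63 by the same measure, Bach2 at -0.50 and -0.43, and Mafk at 0.38 under each. Rescaling multiplies all folds by the same factor, so it leaves the order of the 8 folds as it is.

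**Figure D2:**
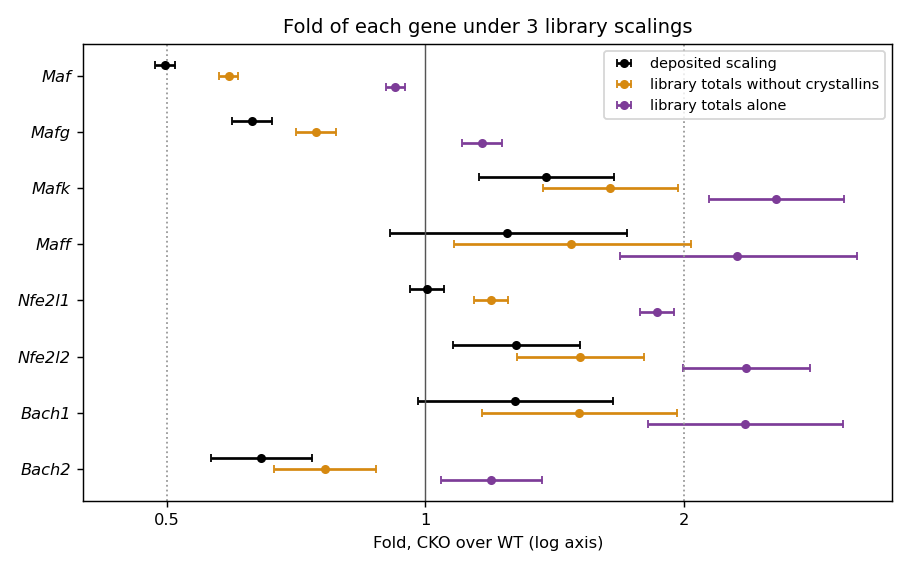
Fold of each gene, CKO over WT (horizontal, log axis), under the deposited scaling (black), library totals without crystallins (orange) and library totals alone (purple); bars are exact 95% counting intervals and dotted lines mark 2-fold. Maf stays below 1 in all 3, whereas Mafg and Bach2 lie above 1 under library totals alone and below it under the others.

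Ratios of a pair of genes within a library are free of that choice, and 10 pairs were compared. The balance of the small Maf genes differed between the libraries. Mafk stood at 0.209 of the Mafg level in CKO and 0.0949 in WT, a ratio 2.20-fold higher in CKO (1.82 to 2.66). The Maff to Mafg ratio was 1.98-fold higher (1.44 to 2.74), while that of Maff to Mafk, at 0.900 (0.625 to 1.30), did not differ beyond counting error. Maf stood 35.9 times above Mafk in WT and 12.9 times above it in CKO, a 2.78-fold lower ratio (2.32 to 3.34) and the largest change of these 10 pairs. Against Mafg the difference was smaller, 1.26-fold lower (1.19 to 1.34). Mafg was 8.88 times as abundant as Nfe2l2 in WT and 4.38 times in CKO, 2.03-fold lower (1.70 to 2.43).

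Among the repressor genes, Bach2 stood lower against both activator genes in CKO, while the intervals for Bach1 included no change. Bach1 stood at 0.267 of the Nfe2l2 level in each library, a change of 0.996 (0.729 to 1.37). Its ratio to Nfe2l1 changed by 1.26 (0.972 to 1.65). Bach2, in 2 further pairs added after the data were seen, stood at 0.400 of the Nfe2l2 level in CKO and 0.791 in WT, a 1.98-fold lower ratio (1.59 to 2.47), and its ratio to Nfe2l1 was 1.56-fold lower (1.35 to 1.80). The Nfe2l1 to Nfe2l2 ratio was 1.27-fold lower in CKO (1.06 to 1.52). Within the BACH pair, Bach2 was 2.96 times as abundant as Bach1 in WT and 1.5 times in CKO, a 1.97-fold lower ratio (1.47 to 2.66). The interval of 7 of the first 10 pairs, and of both added pairs, lay clear of 1.

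**Figure D3:**
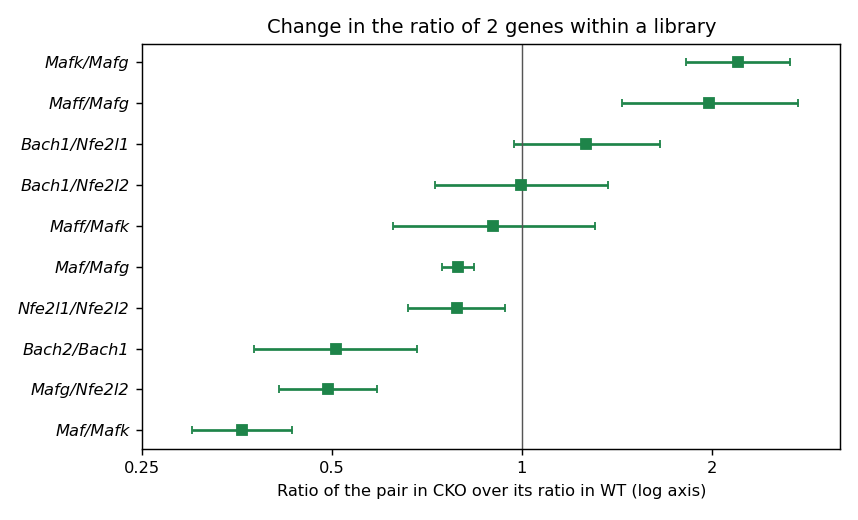
Change in the ratio of each pair of genes, CKO over WT (horizontal, log axis), with exact 95% counting intervals; a value of 1 means the same ratio in both libraries. Mafk and Maff stand higher against Mafg in CKO, Maf and Mafg stand lower against Mafk and Nfe2l2, and Bach1 against Nfe2l2 lies at 0.996.

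Of 4 related genes outside the set, Nrl had a high level in the CKO library and the other 3 were below 1 FPKM in both. Nrl, the large Maf gene that sets rod identity, was at 45.3 and 0.837 FPKM, 54.2-fold higher (38.3 to 79.4), beside the photoreceptor markers given above. Mafa had 6 and 7 reads, Nfe2l3 20 and 6, and Nfe2, the erythroid cap-n-collar gene, 0 and 2.

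Most crystallin genes taken as MAF targets were lower in CKO by a larger fold than Maf itself. Of 14, all measured, 13 passed the 2-fold rule as lower in CKO and none as higher, with a median log2 ratio of -1.58. Under library totals alone 6 of the 14 passed as lower, with a median of -0.69 beside the 0.68 of all measured genes, and without crystallins in the totals 11 passed, with a median of -1.34. The exception under the deposited scaling was Cryba2, named after its value was seen, at -0.84. The fold decrease exceeded that of Maf in 13 of the 14. Relative to Cryaa, Maf was 1.26-fold higher in CKO (1.22 to 1.29), relative to Crybb1 1.31-fold higher (1.27 to 1.34), and relative to Cryba2 it stood at 0.889 of its WT value (0.866 to 0.912); these intervals are asymptotic. The lowest ratios were those of the gamma-crystallins Cryga (log2 ratio -5.58), Cryge (-3.48), Crygf (-3.04) and Crygd (-2.39), whose similar sequences can divide reads, so that their separate values are uncertain. Lens fibre markers as a sum were 2.73-fold lower in CKO under the deposited scaling.

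The partners of MAF at crystallin promoters all lay within 2-fold. All 6 had a log2 ratio below 0, with a median of -0.42. Sox1, a factor that binds gamma-crystallin promoters, had 17.1 FPKM in CKO against 32.6 in WT, 1.90-fold lower (1.79 to 2.02). Prox1, a fibre differentiation factor, was at 42.1 and 61.4 FPKM, and Sox2, of the early lens, at 28.0 and 38.0. Under library totals alone the median of these 6 was 0.44, below the 0.68 of all measured genes.

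NRF2 target genes did not share a direction. Of 33 listed, 22 were measured, 1 was higher and 2 lower by the 2-fold rule, and the median log2 ratio was -0.02, the same as for all measured genes. Srxn1, the sulfiredoxin gene, had 8.89 FPKM in CKO against 2.58 in WT, 3.45-fold higher (2.81 to 4.26). The haem oxygenase gene Hmox1 was at 100.0 and 268 FPKM, 2.68-fold lower (2.58 to 2.77). Gclc, the catalytic subunit gene of glutathione synthesis, was at 23.6 and 63.7 FPKM, 2.70-fold lower (2.55 to 2.85). Its modifier subunit gene Gclm, named after its value was seen, was at 14.1 in both. With library totals as the scale, 8 of the 22 passed as higher and none as lower. Their median was then 0.75, beside the 0.68 of all measured genes. The share of all measured genes past the rule was not counted on that scale.

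Haem and iron genes that BACH1 represses were lower by the rule in 1 of 8 measured genes, Hmox1 again, and higher in none, with a median log2 ratio of -0.08. This list shares 4 of its 10 genes with the NRF2 targets. Ftl1, the ferritin light chain gene, had 857 FPKM in CKO against 1641 in WT, 1.91-fold lower (1.88 to 1.95), and Fth1, the heavy chain gene, at 616 and 667. Proteasome genes, the NRF1 targets, lay within 2-fold in all 31, from -0.43 for Psmb5 to 0.43 for Psma5 on the log2 scale, with a median of -0.10 (the pair named after its values were seen). With library totals alone as the scale, 6 of these 31 passed as higher, with a median of 0.75 beside the 0.68 of all measured genes. Of the haem and iron genes 1 then passed as higher and none as lower, with a median of 0.77. The most abundant proteasome genes were Psmc5 at 133 and 147 FPKM, Psmc1 at 85.1 and 92.9, and Psmb1 at 76.4 and 74.5.

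Genes that control NRF2, NRF1 and BACH1 as proteins were mostly within 2-fold. Of 15 measured, 1 passed the rule, and the median log2 ratio was 0.02. Under library totals alone 3 passed as higher and the median was 0.73, beside the 0.68 of all measured genes. Sqstm1, which encodes the autophagy receptor p62 that binds KEAP1 and is itself an NRF2 target, had 103 FPKM in CKO against 39.4 in WT, 2.62-fold higher (2.5 to 2.76). Keap1 itself, the sensor that holds NRF2 in check, was at 4.81 and 5.18 FPKM and was named after its value was seen. Cul3, the ubiquitin ligase scaffold that acts with KEAP1, was at 25.7 and 28.1 FPKM, and Vcp, the segregase that extracts NRF1 from the endoplasmic reticulum, at 20.0 and 28.9. Of 6 other leucine zipper partners that were measured, 3 passed the rule as higher and none as lower, with a median of 0.62. Junb was 6.80-fold higher (4.57 to 10.5), Fos 8.84-fold (5.04 to 16.9) on 176 and 13 reads, and Atf4 2.04-fold (1.89 to 2.20), with a log2 ratio of 1.01 that sits on the edge of the rule. Jun, at 1.13-fold with an interval of 0.984 to 1.29, Jund at 1.19-fold and Fosl2 at 1.25-fold did not pass it, and were named after their values were seen.

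**Figure D4:**
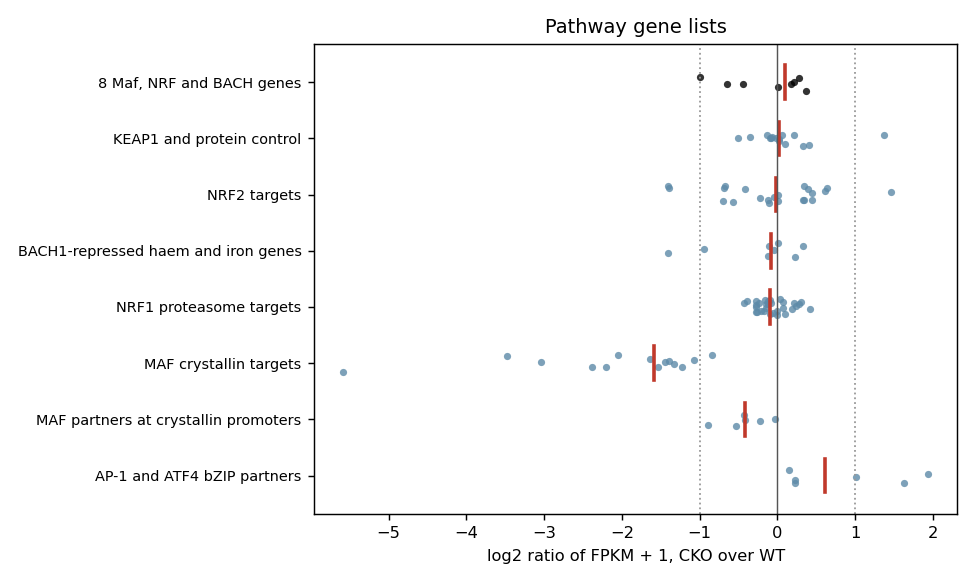
Log2 ratio of FPKM + 1, CKO over WT (horizontal), for the 8 genes and for the measured members of each pathway list; each point is a gene, red bars are medians and dotted lines mark 2-fold. The crystallin list has a median of -1.58 and the leucine zipper partners 0.62, while the NRF2, NRF1 and BACH1 lists have medians between -0.10 and -0.02.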

How the data were processed

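Lens messenger RNA was measured in 2 libraries, 1 per genotype. The deposited values are FPKM, a unit inferred because each value times the deposited gene length is a whole multiple of 1 step per library, within 0.001 in 100% of values. That step was taken as 1 read (or pair). It gives effective libraries of 1.36 (CKO) and 0.735 (WT) times the recovered totals, so the authors' FPKM are scaled beyond totals. Per the submitters' processing notes, STAR 2.5.1b, HTSeq 0.6.0 and DESeq2 1.10.1 were used; the roles of these tools, the build, the annotation and the use of strand were not given in the sources used here. Of the gene IDs, 99.5% were found in GENCODE M21 (GRCm38), whose exonic length equals the table's for 7 of the 8 genes (not Maff).

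Without replicates there is no test. The size rule is 2-fold on log2(FPKM + 1), which understates low genes, among genes with a mean FPKM of 1 or more. Folds have Clopper-Pearson (conditional binomial) 95% intervals from the recovered reads, and pair ratios exact conditional odds ratio intervals (scipy 1.17.1). Named were all 8 genes, 4 relatives (another relative is not reported here) and, of each of 7 lists, those past the rule (at most the 4 highest and 4 lowest), or where fewer than 3 passed also the 3 most abundant in WT. The 8 genes and the lists were chosen with earlier results of these data known. Alternatives were 3 other scalings, a pseudocount of 0.1, a minimum of 10 reads and no filter; a rule of 1.5-fold and 2 pairs with Bach2 were added after the data were seen. The steps were tested on simulated data.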

Additional observations from a re-analysis of the deposited data

How the results depend on the processing

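Each library is the only one of its genotype, so no library could be left out and depth sets counting error alone. No paired analysis was possible because there is 1 library per genotype. Scaling to library totals alone made 1 of the 8 genes pass the 2-fold rule as higher (Mafk, 2.56-fold). The folds of Nfe2l2 (2.36), Bach1 (2.36) and Maff (2.31) were also above 2 there. They did not pass because the rule adds 1 FPKM to each level. The share of all measured genes past the rule was not counted on that scale. The median log2 ratio of the 8 under library totals alone was 0.73, beside 0.68 for all measured genes. Totals without crystallins gave a median of 0.28, beside 0.18 for all measured genes, and none of the 8 past the rule. Maf, whose log2 ratio of -0.99 lies next to the rule, passed it with median-of-ratios scaling and with a pseudocount of 0.1, 1 gene lower in each case; a rule of 1.5-fold gave 2 genes lower. A minimum of 10 reads and no filter left the counts and the median of the 8 genes as they were. Under library totals alone 10 of 33 named genes changed sign, Mafg and Bach2 among them, under totals without crystallins 4 and with median-of-ratios 1, Nfe2l1; none of these had passed the rule. The changes in pair ratios do not depend on scaling or gene length. Shares do not depend on scaling either, but they do depend on gene length: by reads, Mafg made 91.8% of the small Maf genes in WT and 84.0% in CKO.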
